A study of Homo sapiens with 8 samples.

Results

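The genes described here are the metallothioneins MT1E, MT1F, MT1G, MT1X and MT2A, the zinc-sensing transcription factor MTF1 and the zinc exporter SLC30A1, 7 of the 63241 genes listed for NCI-H716. They were chosen by gene symbol as genes of the cellular zinc response. All 7 were found in the NCI-H716 tables, where they carry the identifiers ENSG00000169715 (MT1E), ENSG00000198417 (MT1F), ENSG00000125144 (MT1G), ENSG00000187193 (MT1X), ENSG00000125148 (MT2A), ENSG00000188786 (MTF1) and ENSG00000170385 (SLC30A1). In the HCT116 table used here, which ends on chromosome 9, only MTF1 and SLC30A1 are listed, so the metallothioneins were not analysed here in that line. RNA was sequenced in 8 libraries, 2 from control and 2 from Z325-treated cells of each line. HCT116 and NCI-H716 are human colorectal cancer cell lines, and Z325 is ZINC000101867325, a compound that the study chose by docking as an inhibitor of FGFR kinases and dissolved in DMSO. The labels call the groups Control and Test, name no other agent or allele, and give no dose or time for the RNA. About 100 cells went into each reaction, and each line stands as 1 cell model.

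Metallothioneins are small cytosolic proteins rich in cysteine that bind zinc, copper and cadmium. When free zinc rises, MTF1 binds metal response elements in the promoters of the metallothionein genes and of SLC30A1, and transcription from them increases. SLC30A1, also called ZnT1, carries zinc out of the cell across the plasma membrane. Oxidants, electrophiles and glucocorticoids are also known to raise metallothionein RNA, and intestinal epithelium is a tissue in which these genes are well known to respond to dietary zinc.

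The metal response element is the promoter element these genes are known for, and so the 250 bases before the annotated start are shown for the members in which its core was found. The sequences are from RefSeq (GRCh38.p14), 5′ to 3′ on the strand of the gene, and capitals mark every core, spelled TGCACNC or TGCGCNC and searched on both strands. MT2A is from chr16:56608334-56608583 (plus strand), MT1X from chr16:56682220-56682469 (plus strand) and SLC30A1 from chr1:211579162-211579411 (minus strand).
MT2A: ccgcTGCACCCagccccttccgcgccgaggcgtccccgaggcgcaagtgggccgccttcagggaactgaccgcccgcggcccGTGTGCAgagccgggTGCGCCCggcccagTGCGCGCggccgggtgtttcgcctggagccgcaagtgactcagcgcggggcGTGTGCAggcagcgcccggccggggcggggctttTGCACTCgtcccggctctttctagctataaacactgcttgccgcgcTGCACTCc
MT1X: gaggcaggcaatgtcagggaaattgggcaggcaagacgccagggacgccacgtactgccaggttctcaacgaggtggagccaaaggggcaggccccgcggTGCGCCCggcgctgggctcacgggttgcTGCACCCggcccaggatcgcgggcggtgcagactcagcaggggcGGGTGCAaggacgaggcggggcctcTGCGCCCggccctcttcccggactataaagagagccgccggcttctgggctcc
SLC30A1: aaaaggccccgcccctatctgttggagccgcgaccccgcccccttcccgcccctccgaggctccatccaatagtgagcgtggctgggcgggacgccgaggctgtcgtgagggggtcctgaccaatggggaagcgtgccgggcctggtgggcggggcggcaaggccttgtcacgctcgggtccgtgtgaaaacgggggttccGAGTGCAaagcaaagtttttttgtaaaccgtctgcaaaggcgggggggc
Promoter sequences were matched for 4 of the 7 members (MT1X, MT2A, MTF1 and SLC30A1). Counting also the first 50 bases after the start, MT2A held 8 cores, 7 of them before the start, MT1X held 4, all before the start, and SLC30A1 held 2, of which 1 lay before the start. The window of MTF1 held 0. Among 35116 RefSeq promoters of the same length, 29.6% held at least 1 core, 8.60% at least 2, 0.601% at least 4 and 0.0199% at least 8. The core of the antioxidant response element (TGACNNNGC, both strands) occurred 1 time each in MT2A, MT1X and SLC30A1 and in 13.3% of all promoters, and no antioxidant core overlapped a metal core. A match of letters is a description and was not measured as a binding site.

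**Figure D1:**
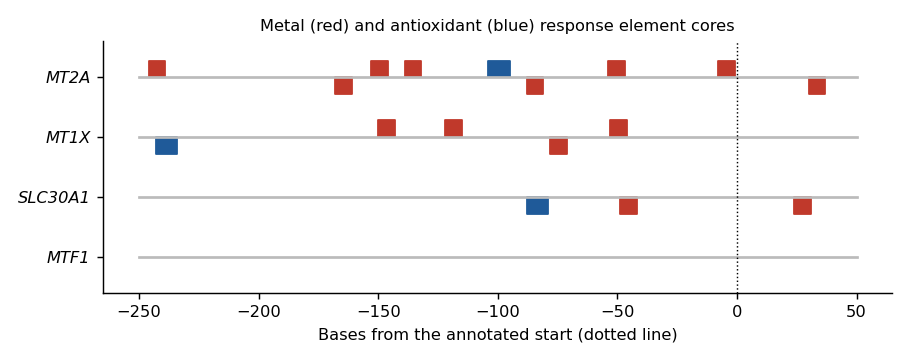
Positions of metal (red) and antioxidant (blue) response element cores from 250 bases before to 50 bases after the annotated start of 4 members. The x axis is the distance from the start in bases, boxes above and below each line are matches on the gene's own and on the other strand, and MT2A carries the most metal cores (8) while MTF1 carries 0.

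The 5 metallothionein genes lie between chr16:56608584 and chr16:56684196 (GRCh38, GENCODE v44). Their exons occupy 914 bases in MT2A, 1727 in MT1X, 751 in MT1G, 1852 in MT1F and 1052 in MT1E. MTF1 is at chr1:37809574-37859592 and SLC30A1 at chr1:211571568-211579161, both on the minus strand. The coding sequences of the most abundant pair, MT2A and MT1X, and of MT1G, whose difference between groups was the largest among the metallothioneins, show how alike the genes are. They are from the GENCODE v44 transcripts, and capitals mark the TGC and TGT codons, which encode cysteine.
MT2A: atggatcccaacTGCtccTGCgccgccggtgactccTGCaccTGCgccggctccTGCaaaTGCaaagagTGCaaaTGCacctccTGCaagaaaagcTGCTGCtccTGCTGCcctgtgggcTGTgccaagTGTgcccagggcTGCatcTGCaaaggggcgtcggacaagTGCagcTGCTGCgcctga
MT1X: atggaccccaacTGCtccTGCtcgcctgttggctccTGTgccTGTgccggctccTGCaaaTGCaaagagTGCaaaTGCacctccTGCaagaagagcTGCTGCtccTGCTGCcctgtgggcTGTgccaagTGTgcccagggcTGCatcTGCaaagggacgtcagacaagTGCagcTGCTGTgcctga
MT1G: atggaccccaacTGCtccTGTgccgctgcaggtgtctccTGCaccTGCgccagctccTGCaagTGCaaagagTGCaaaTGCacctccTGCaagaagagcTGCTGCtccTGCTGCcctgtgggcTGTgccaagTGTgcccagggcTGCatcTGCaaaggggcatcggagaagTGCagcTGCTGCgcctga
Each of the 5 coding sequences holds 20 such codons, of 61 in MT1E, MT1F, MT1X and MT2A and 62 in MT1G. Pairwise identity ran from 88.7% to 94.2% in the coding part and from 66.9% to 77.9% after the stop codon. Of all 75-base windows of these transcripts, between 0% and 8.18% were found unchanged in another metallothionein. All deposited expected counts of the 22 metallothionein genes and pseudogenes in NCI-H716 were whole numbers, whereas 19.8% of the genes with a count had a fractional one in some library. RSEM divides reads that match several transcripts by a statistical model, and the whole counts show no sign of such a division between these genes. Whether each read was given to the right paralog was not tested, so values of single metallothioneins stay uncertain to that extent. MT1X shares 18.6% of its exon bases with another gene on the same strand, and the other members share none.

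The NCI-H716 libraries held 10210243 to 19738848 counts and the HCT116 libraries 3434620 to 13396225 counts on the listed genes, the shallowest being Z325 replicate 2 of HCT116. In NCI-H716, 8 of 11 markers of colorectal epithelium had at least 10 counts in every library, among them EPCAM, KRT8, KRT18 and CDX2, while CDX1 was at 0 and CDH1 at 0 to 7 counts. Neuroendocrine markers were present as well (7 of 8), and their summed level was 932 to 1040 CPM (counts scaled to the library total with TMM factors) in control and 1193 to 1408 CPM in Z325 libraries, against 770 to 797 and 666 to 673 CPM for the epithelial markers. Immune markers summed to at most 8.25 CPM and endothelial markers to at most 0.388 CPM, and 4 of 8 fibroblast markers (COL3A1, LUM, FAP and PDGFRA) were present at 566 to 597 CPM in control and 528 to 559 CPM in Z325 libraries. The part of these markers in the member values was not tested. In HCT116, EPCAM had 5665 to 21581 counts, and VIL1 and CDX1 had at most 6. ELF3, the other epithelial marker listed, had 194 and 186 counts in the control and 44 and 6 in the Z325 libraries of HCT116, and its part in the member values was not tested.

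In untreated NCI-H716 cells MT2A was the most abundant member and MTF1 the least. In TPM, the RSEM level scaled to gene length and to the library, MT2A stood at 508 ± 89.1 (SD, n = 2), rank 335 of the 14142 genes tested. MT1X followed at 249 ± 19.4 TPM and MT1G at 36.2 ± 12.4 TPM. MT1F at 14.1 ± 1.31 and MT1E at 13.7 ± 5.42 TPM could not be ordered, since the 2 libraries of MT1F (15 and 13.2 TPM) fell between those of MT1E (17.5 and 9.86 TPM). SLC30A1 stood at 3.54 ± 0.474 TPM and MTF1 at 1.08 ± 0.0778 TPM. All other neighbours in this order had separate ranges over the control libraries. In the Z325 libraries the order was the same and no neighbours overlapped, with MT2A at 536 ± 104, MT1X at 302 ± 43.4, MT1G at 71.5 ± 2.26, MT1F at 24.2 ± 2.52, MT1E at 14.5 ± 2.11, SLC30A1 at 5.05 ± 0.297 and MTF1 at 1.07 ± 0.198 TPM.

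**Figure D2:**
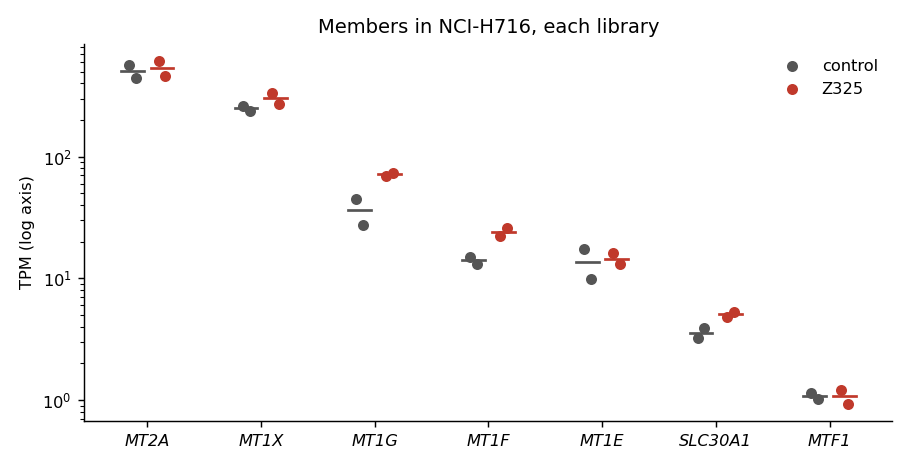
Level of each member in each NCI-H716 library in TPM on a log axis, with control libraries in grey, Z325 libraries in red and short lines at the group means (n = 2). MT2A and MT1X lie above 200 TPM in all 4 libraries, and the groups of MT1G, MT1F and SLC30A1 do not overlap.

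To ask whether Z325 changed the zinc response genes in NCI-H716, Z325 and control libraries were compared for every gene with edgeR's quasi-likelihood test. None of the 7 members passed an adjusted p of 0.05 (edgeR, Benjamini-Hochberg over 14142 genes), where 0.502% of all genes tested did (0.403% higher, 57 genes, and 0.099% lower, 14 genes). Without adjustment 2 of 7, MT1G and SLC30A1, had a p under 0.05, both with higher levels, against 16.9% of all genes in either direction and 7.59% in that direction. DESeq2 also called 0 of 7, where it called 162 of 31956 genes higher and 154 lower. Limma on log2(FPKM + 1) called 0 of 7, where it called 5 of 14142 genes higher and 1 lower. Each had 2 of 7 at an unadjusted p under 0.05, a share not counted over all genes for these tools. In DESeq2 these were again MT1G and SLC30A1, and in limma they were MT1G and MT1F. In 4 of 7 members (MT1E, MT1F, MT1G and SLC30A1) both Z325 libraries were above both controls in normalised counts, which held for 24.3% of all genes, while the reverse held for 25.1%. The median log2 fold change of the 7 was 0.45 and that of all genes tested -0.01. In these bulk samples a change in RNA per cell and a change in the mix of cells cannot be told apart.

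MT1G, a metallothionein of the MT1 cluster, had the largest fitted difference of the members with all 4 libraries, though not without control replicate 2. Its TMM-normalised level was 10.2 and 5.82 CPM in the control libraries and 14.5 and 15.1 CPM in the Z325 libraries, from 135, 60, 190 and 300 counts. The Z325 libraries lay above both controls and close to each other, while the controls were further apart. The log2 fold change was 0.87 (SE 0.30, 95% interval 0.21 to 1.53, unadjusted p = 0.0144, adjusted p = 0.199 from edgeR). It was 1.35 without control replicate 1 and 0.54 without control replicate 2, so the size of this difference rested on which control library was used.

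SLC30A1, the exporter, was at 24.0 and 29.0 CPM in control and at 37.5 and 41.5 CPM in Z325 libraries. The groups did not overlap, and each was narrower than the gap between the means of 26.5 ± 3.53 and 39.5 ± 2.84 CPM (SD, n = 2). SLC30A1 differed by a log2 fold change of 0.58 (SE 0.20, 95% interval 0.14 to 1.02, unadjusted p = 0.0148, adjusted p = 0.201 from edgeR). It lay between 0.42 and 0.73 under all 15 alternatives.

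MT1F and MT1E were expressed at low levels. MT1F was at 4.24 and 3.10 CPM in control and at 5.04 and 5.83 CPM in Z325 libraries, with 32 to 116 counts a library. MT1E was at 7.57 and 5.04 CPM in control and at 9.54 and 7.79 CPM in Z325 libraries, so its lower Z325 library was only just above the higher control. The log2 fold change of MT1F was 0.56 (SE 0.36, 95% interval -0.24 to 1.36, adjusted p = 0.459 from edgeR). That of MT1E was 0.45 (SE 0.31, 95% interval -0.25 to 1.14, adjusted p = 0.496 from edgeR). Both intervals include 0 and also changes above 2-fold. Without control replicate 1 the values were 0.82 for MT1F and 0.78 for MT1E, without control replicate 2 they were 0.37 and 0.20, and limma on log2(TPM + 1) gave 0.13 for MT1E.

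The most abundant metallothioneins showed no difference beyond the spread of the libraries. MT2A, the main metallothionein of most human cells, was at 133 and 90.7 CPM in control and at 120 and 91.2 CPM in Z325 libraries. MT1X was at 62.8 and 49.4 CPM in control and at 67.7 and 54.5 CPM in Z325 libraries. In both genes the groups overlapped, and replicate 1 was the higher library in each group. In log2 fold change MT2A was -0.08 (95% interval -0.57 to 0.40, adjusted p = 0.888 from edgeR) and that of MT1X 0.12 (95% interval -0.32 to 0.56, adjusted p = 0.797 from edgeR). The direction of MT2A turned with the unit, as it was 0.07 in limma on log2(TPM + 1) and 0.14 on log2(FPKM + 1).

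The difference between the units goes with the effective length, the number of start positions that RSEM allows a transcript and by which it divides. The values here are per gene, where RSEM weights the transcripts of the gene by their abundance. How much of a difference came from that weighting was not tested. For MT2A it was 176 and 153 bases in the control and 144 and 140 bases in the Z325 libraries. For MT1G it was 171 and 160 bases in control and 151 and 147 bases in Z325 libraries, and for MT1F 213 and 178 against 163 and 160 bases. For MT1E it moved the other way, from 326 and 385 to 432 and 425 bases. In SLC30A1, a long transcript, it was 5661 and 5634 bases in the control and 5621 and 5612 bases in the Z325 libraries. CPM does not use this length, and so the edgeR and DESeq2 tests neither divide by it nor correct for it. The TPM and FPKM of the short metallothioneins, and the limma values made from them, do depend on it. Whether the counts of short transcripts also vary with this length was not tested. MT1F, for example, differed by 0.82 on the log2(FPKM + 1) scale (limma, unadjusted p = 0.00534, adjusted p = 0.274).

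MTF1, the transcription factor, was at 10.98 ± 0.855 CPM in control and at 11.4 ± 1.94 CPM in Z325 libraries of NCI-H716 (SD, n = 2), from 153, 107, 167 and 199 counts. After normalisation the Z325 libraries enclosed the controls. Between the groups the log2 fold change was 0.05 (SE 0.26, 95% interval -0.52 to 0.61, adjusted p = 0.947 from edgeR). MTF1 protein is controlled largely by zinc binding and movement to the nucleus, which RNA counts do not measure.

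**Figure D3:**
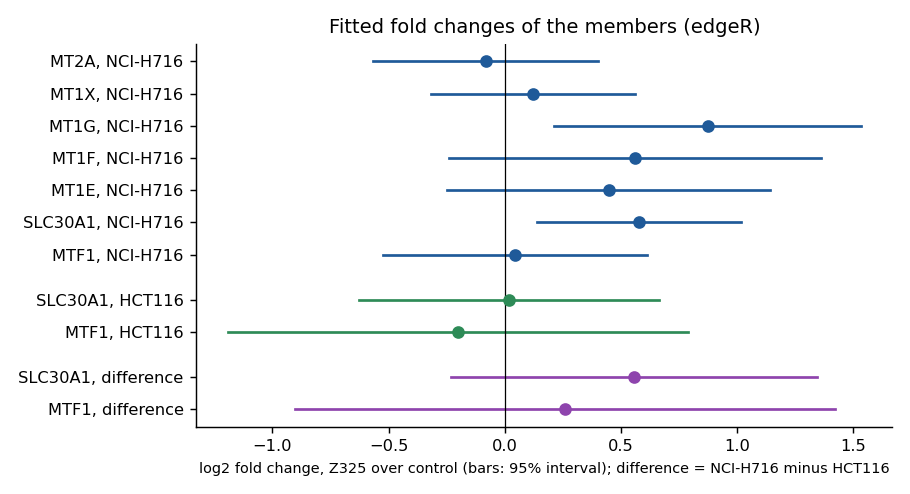
Fitted log2 fold changes of the members, Z325 over control, with 95% intervals (edgeR), in NCI-H716 (blue) and HCT116 (green), and the difference between the lines (purple). The intervals of MT1G (0.21 to 1.53) and SLC30A1 (0.14 to 1.02) in NCI-H716 lie above 0, and all others include 0.

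Because reads may be shared between paralogs, the counts of all 22 metallothionein genes and pseudogenes were also added up. The sum was 218 and 154 CPM in control and 218 and 175 CPM in Z325 libraries. The group means of 186 ± 44.96 and 197 ± 30.4 CPM (SD, n = 2) differed by less than the spread between libraries, with a log2 ratio of 0.08. Without control replicate 1 the ratio was 0.35 and without control replicate 2 it was -0.15. The 17 genes and pseudogenes that are not members added little. Of these, 13 had no count in any library, which allows up to 3 counts a library or 0.151 to 0.291 CPM, and 4 had 1 to 10 counts in the library where they were highest. MT1H had 0 and 2 counts in the control and 7 and 10 in the Z325 libraries, MT1A had 4 counts in Z325 replicate 1 alone, MT3 had 3 and MT1L 1 in Z325 replicate 2 alone. None of the 4 passed the filter on low counts, and they were not tested.

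The make-up of the sum was taken as the share of each gene in a library. MT2A gave 61.1% (exact 95% binomial interval 59.2 to 62.8%) and 58.8% (56.3 to 61.2%) of the metallothionein counts in the control libraries, and 55.2% (53.4 to 57.1%) and 52.1% (50.4 to 53.7%) in the Z325 libraries. MT1G gave 4.69% (3.95 to 5.53%) and 3.77% (2.89 to 4.83%) in control and 6.65% (5.76 to 7.63%) and 8.61% (7.70 to 9.59%) in Z325 libraries. The shares of MT2A were lower and those of MT1G higher in both Z325 libraries than in both controls, with mean differences of -6.28 and 3.40 percentage points. MT1F moved from 1.95% and 2.01% to 2.31% and 3.33%, and MT1E from 3.48% and 3.27% to 4.38% and 4.45%. MT1X gave 28.8% and 32.0% in control and 31.0% and 31.1% in Z325 libraries, and its groups overlapped. The shares of a library add up to a fixed total, so the share of MT2A can be lower without a lower level of MT2A, and its level overlapped between the groups. The shares do not depend on the scaling of a library, and the intervals cover counting error only. An exact permutation test of 2 libraries against 2 cannot go below p = 0.333, and no test was made.

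**Figure D4:**
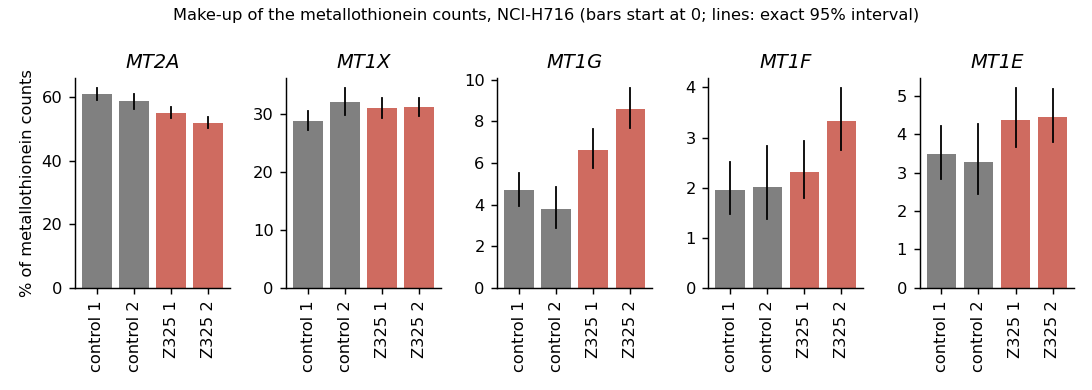
Share of each member in the counts of all 22 metallothionein genes and pseudogenes, in percent, for the 4 NCI-H716 libraries (control grey, Z325 red), with exact 95% binomial intervals as lines. The y axes differ between panels and start at 0. MT1G has its lowest shares in the controls (4.69% and 3.77%) and MT2A its lowest in the Z325 libraries (55.2% and 52.1%).

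In HCT116, MTF1 and SLC30A1 were compared in the same way, and neither passed the test (0 of 2, edgeR) where 5.78% of 6491 genes did. DESeq2 also called 0 of 2, where it called 353 of 14822 genes higher and 356 lower. Limma on log2(FPKM + 1) called 0 of 2, where it called 29 of 6491 genes higher and 18 lower. By these tools and edgeR 0 of 2 had an unadjusted p under 0.05, where 23.9% of all genes in edgeR did. MTF1 was at 12.6 and 14.4 CPM in control and at 7.19 and 17.2 CPM in Z325 libraries, from 174, 188, 92 and 60 counts. The Z325 libraries lay on either side of the controls. The log2 fold change was -0.20 (SE 0.43, 95% interval -1.19 to 0.79, adjusted p = 0.836 from edgeR). Each Z325 library decided it, as the log2 fold change was -0.88 without the shallow replicate 2 and 0.33 without replicate 1. SLC30A1 was at 49.97 and 31.1 CPM in control and at 36.4 and 46.4 CPM in Z325 libraries, with the Z325 libraries inside the range of the controls. Its log2 fold change was 0.02 (SE 0.28, 95% interval -0.63 to 0.66, adjusted p = 0.979 from edgeR). In FPKM computed over the listed genes, which takes exon length into account, SLC30A1 ranged from 5.23 to 8.79 and MTF1 from 0.860 to 2.19 over the 4 libraries, so the exporter was above the factor in every library of HCT116 as it was in NCI-H716.

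Whether the response to Z325 differed between HCT116 and NCI-H716 was asked with an interaction term in 1 fit of the 8 libraries. Of the 2 members measured in both lines, 0 passed in edgeR, where 0.0654% of 7642 genes did. In DESeq2 0 passed as well, where 45 of 18025 genes passed as higher and 59 as lower. Both tools gave 0 of 2 at an unadjusted p under 0.05, where edgeR gave 14.3% of all genes. The log2 fold change of SLC30A1 was higher in NCI-H716 than in HCT116 by 0.56 (SE 0.36, 95% interval -0.23 to 1.34, unadjusted p = 0.150, adjusted p = 0.501 from edgeR). That of MTF1 was higher by 0.26 (95% interval -0.90 to 1.42, adjusted p = 0.906 from edgeR). Single HCT116 controls moved the difference of SLC30A1, which was 0.16 without control replicate 1 and 0.88 without control replicate 2 (unadjusted p = 0.0247, adjusted p = 0.331 from edgeR).

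Other zinc transporters were examined as lists. Over all genes tested in NCI-H716, 0.502% passed in edgeR and 16.9% had an unadjusted p under 0.05. The SLC30 family moves zinc out of the cytosol and the SLC39 family into it. Of 6 other SLC30 genes tested in NCI-H716, 0 passed in edgeR, and 1 had an unadjusted p under 0.05, SLC30A10, which exports manganese (log2 fold change 0.52, unadjusted p = 0.0329, adjusted p = 0.257 from edgeR). Next came SLC30A7 of the Golgi (0.38, adjusted p = 0.341 from edgeR) and SLC30A9 (-0.15, adjusted p = 0.706 from edgeR). The median of the 6 was 0.12. Of 11 SLC39 genes tested, 0 passed in edgeR, and 1 had an unadjusted p under 0.05. This was SLC39A4, the importer of dietary zinc in the intestine, at 55.3 and 44.1 CPM in control and at 33.3 and 30.3 CPM in Z325 libraries. Its groups did not overlap, and the log2 fold change was -0.65 (SE 0.20, unadjusted p = 0.00747, adjusted p = 0.169 from edgeR). SLC39A10 (0.29, adjusted p = 0.486 from edgeR) and SLC39A13 (-0.55, adjusted p = 0.509 from edgeR) followed, and the median of the 11 was -0.02.

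In HCT116, 5 other SLC30 and 3 SLC39 genes were tested and 0 of them passed in edgeR. Over all genes tested in this line, 5.78% passed and 23.9% had an unadjusted p under 0.05. SLC30A7 was at 129 and 128 CPM in control and at 170 and 174 CPM in Z325 libraries, with a log2 fold change of 0.42 (unadjusted p = 0.0165, adjusted p = 0.118 from edgeR), the only one of the 8 at an unadjusted p under 0.05. The other 4 SLC30 values were -0.66 for SLC30A3, 0.11 for SLC30A9, -0.12 for SLC30A6 and -0.05 for SLC30A5 on the log2 scale, and the SLC39 values were -0.39 for SLC39A10, -0.37 for SLC39A8 and -0.08 for SLC39A14, with adjusted p from 0.210 to 0.890 in edgeR. SLC39A4 had no count in HCT116, where SLC39A7, which shares 9.02% of its exon bases with another gene, had none either. Whether their RNA was absent or their reads were not counted was not tested.

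Of 13 genes that handle copper and cadmium, 0 passed in NCI-H716 (edgeR, 3 at an unadjusted p under 0.05). The shares over all genes tested there were 0.502% and 16.9%. SCO2, a mitochondrial copper chaperone that shares 88.2% of its exon bases with other genes and is uncertain for that reason, had a log2 fold change of -0.87 (adjusted p = 0.118 from edgeR). COX17, a copper chaperone for cytochrome c oxidase, was at 0.44 (adjusted p = 0.224 from edgeR) and CCS, the chaperone of superoxide dismutase, at 0.55 (adjusted p = 0.286 from edgeR). In HCT116, 2 of 3 tested genes rose, where 2.83% of all genes tested did. These were COMMD1, a regulator of copper export (0.66, adjusted p = 0.0240 from edgeR), and COX17 (0.59, adjusted p = 0.0405 from edgeR), while ATOX1 was at -0.12 (adjusted p = 0.700 from edgeR). COMMD1 shares 38.2% and COX17 20.04% of their exon bases with other genes, so both values are uncertain. Both calls were lost without either control library, where calls over all genes fell too. Without control replicate 1 the log2 fold change was 0.61 for COMMD1 and 0.64 for COX17, and without control replicate 2 it was 0.69 and 0.53. Both calls were also lost in limma on log2(FPKM + 1), which called 29 of 6491 genes higher and 18 lower.

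In NCI-H716, 6 of 13 tested genes that oxidants or metals induce rose and 0 fell in edgeR, where 0.403% of all genes rose. The list was chosen with earlier results of these data known, so this share is a description and no independent test. The cystine transporter SLC7A11 went from 43.8 and 54.9 CPM to 236 and 233 CPM, a log2 fold change of 2.25 (SE 0.18, adjusted p = 0.000404 from edgeR). GCLM, a subunit of the enzyme that starts glutathione synthesis, rose by 2.04, TXNRD1, a thioredoxin reductase, by 1.66 and the quinone reductase NQO1 by 1.22, with adjusted p from 0.00117 to 0.0126 in edgeR. OSGIN1 rose by 4.13 from 3 and 10 counts to 130 and 202 (adjusted p = 0.00737 from edgeR). SRXN1, a sulfiredoxin, rose by 1.31 (adjusted p = 0.0244 from edgeR), but 90.7% of its exon bases belong also to another gene. The median of the 13 was 1.22, beside 0.45 for the 5 metallothioneins. Members and list were both chosen with earlier results known, so these medians are a description, and their difference was not tested. In HCT116 only 3 of the 14 genes of the list could be tested, and all 3 rose, where 2.83% of all genes tested did. SLC7A11 rose by 2.66, GCLM by 1.79 and GCLC, the catalytic subunit, by 1.73, with adjusted p from 0.000331 to 0.00498 in edgeR. In NCI-H716 the call of NQO1 was lost without control replicate 1 (log2 fold change 1.34) or 2 (1.12), and that of SRXN1 without control replicate 1 (1.17). Limma on log2(FPKM + 1) called 0 of the 6, at adjusted p from 0.0585 to 0.207. Over all 14142 genes it called 5 higher and 1 lower. In HCT116 the call of GCLC was lost without control replicate 1 (log2 fold change 1.77) or 2 (1.69), where calls over all genes fell too. SLC7A11, GCLC, OSGIN1 and NQO1 share 8.22% to 19.4% of their exon bases with other genes.

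Of the genes of the glucocorticoid response, a list of induced genes and the receptor NR3C1 itself, 0 of 8 tested passed in NCI-H716 (edgeR, 1 at an unadjusted p under 0.05). The shares over all genes tested there were 0.502% and 16.9%. ERRFI1, a feedback inhibitor of EGFR, was closest, at a log2 fold change of 0.94 (adjusted p = 0.0615 from edgeR), followed by the phosphatase DUSP1 (-0.53, adjusted p = 0.318 from edgeR) and the receptor NR3C1 (0.59, adjusted p = 0.402 from edgeR). In HCT116, 1 of 6 fell, FKBP5, a chaperone of the glucocorticoid receptor, by 0.87 (adjusted p = 0.0284 from edgeR), where 2.94% of all genes fell. That call was lost without control replicate 1 (log2 fold change -0.84) or 2 (-0.91), where calls over all genes fell too. It was also lost in limma on log2(FPKM + 1), which called 18 of 6491 genes lower. The kinase SGK1 was at -1.28 (adjusted p = 0.0959 from edgeR) and ERRFI1 at 0.30 (adjusted p = 0.187 from edgeR).

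**Figure D5:**
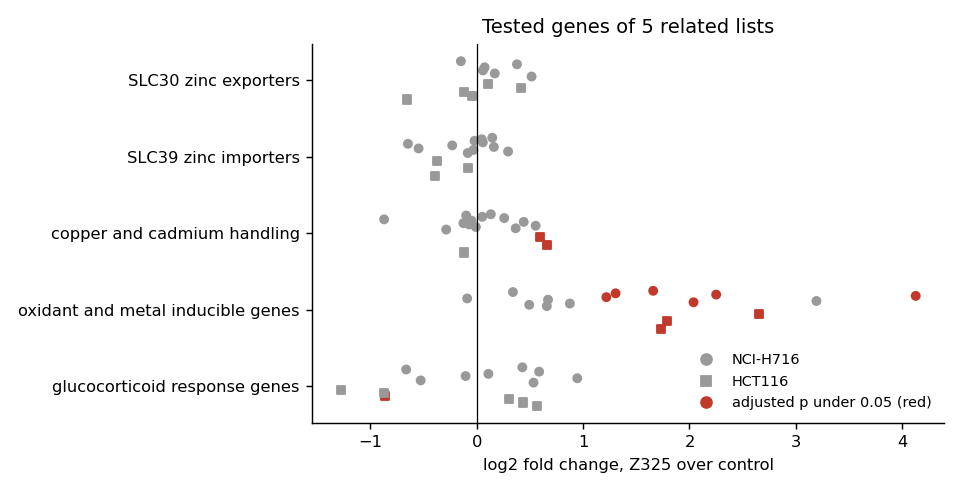
Log2 fold changes (Z325 over control) of all tested genes of 5 lists, with NCI-H716 as circles, HCT116 as squares and genes with an adjusted p under 0.05 in red (edgeR). The red points lie in the oxidant list (6 in NCI-H716 and 3 in HCT116), in the copper list (2 in HCT116) and in the glucocorticoid list (1 in HCT116).

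The genes whose pattern over the 4 NCI-H716 libraries was most like that of the members were found by the root mean square difference of centred log2 CPM. For the mean profile of the 5 metallothioneins these were MCM3AP-AS1 (0.0253), UQCC6 (0.0351) and DENND3 (0.0353). For SLC30A1 they were METTL4 (0.0142), TCFL5 (0.0160) and SLU7 (0.0171), and for MTF1 they were RNF216P1 (0.0120), THAP5 (0.0143) and ZCCHC8 (0.0157). These distances rest on 4 libraries and are a description.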

How the data were processed

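RNA of 8 libraries was amplified by a SMART-Seq2 type kit and sequenced without strand. The methods name TrimGalore, STAR, GRCh38 and RSEM, and the submitters' processing notes name Bowtie2 2.5.0, featureCounts and hg38. For NCI-H716 the authors deposited RSEM expected counts, TPM and FPKM for each library, and GENCODE v44 gave a symbol for 62666 of 63241 identifiers. Raw counts per gene were deposited for HCT116 in 1 table, of which 28043 genes were used and 4 broken or unfinished lines were left out. It lists at least 99.8% of the genes of each of chromosomes 1 to 8, and 8719 of 20046 protein-coding genes.

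Expected counts were rounded. Each line was fitted alone in edgeR 4.0.16 (TMM, filterByExpr, quasi-likelihood test, treatment only), with Benjamini-Hochberg adjustment over all genes tested and a threshold of 0.05. The interaction was fitted over all 8 libraries on the genes in both tables. CPM are TMM-normalized. The FPKM of HCT116 were computed here from counts, exon lengths and listed totals. The authors' test on FPKM was replaced by the count test. Alternatives were DESeq2 1.42.0, limma 3.58.1 on log2(FPKM + 1), log2(FPKM + 0.1) and log2(TPM + 1), other scalings and filters, a replicate block, thinning of HCT116 and leaving out each library. The paper calls the replicates biological duplicates. With 2 libraries a group the p-values measure the spread between these samples only. Binomial intervals are exact (Clopper-Pearson, 95%) and, as the reads carry no molecular identifiers, cover counting error only.

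The members and lists were chosen with earlier results of these data known. Named are all members, from each list and line every gene with an adjusted p under 0.05 and the 3 smallest p, and the 3 nearest patterns to the metallothionein mean, SLC30A1 and MTF1. A list of 12 other metallothioneins had 0 tested genes in either line. Tested on simulated data with 200 genes changed 4-fold, edgeR called 93.5% of them in NCI-H716 (14142 genes, 7 false calls) and 86% in HCT116 (6491 genes, 7 false calls). Smaller changes, such as those fitted for the members, were not simulated, so these rates do not describe them. R 4.3.3 and Python 3.11.15 were used.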

Additional observations from a re-analysis of the deposited data

Results flagged for a closer look

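Among the named list genes that passed the filter on low counts in each line, 3 moved in opposite directions in the lines. Both Z325 libraries lay on one side of both controls in NCI-H716 and on the other side in HCT116. Over all genes tested in NCI-H716, both Z325 libraries were above both controls in 24.3% and below both in 25.1%. The share of all genes with opposite moves was not counted. The 3 genes were picked on these same libraries, so the interaction of treatment and cell line is given as a description of the difference. SLC39A10, a zinc importer, went from 29.2 and 36.4 to 37.0 and 43.2 CPM in NCI-H716 and from 142 and 118 to 105 and 92.2 CPM in HCT116, a difference in log2 fold change of 0.68 (unadjusted p = 0.0294, adjusted p = 0.288 from edgeR). NR3C1, the glucocorticoid receptor, went from 5.91 and 12.5 to 13.1 and 14.3 CPM in NCI-H716 and from 30.7 and 16.0 to 15.5 and 9.45 CPM in HCT116, a difference of 1.45 (unadjusted p = 0.0303, adjusted p = 0.291 from edgeR). DUSP1 went from 17.4 and 13.4 to 11.8 and 9.70 CPM in NCI-H716 and from 13.2 and 20.2 to 22.1 and 23.2 CPM in HCT116, a difference of -0.98 (unadjusted p = 0.0374, adjusted p = 0.314 from edgeR). None of the 3 differences passed the adjusted threshold in edgeR, where 14.3% of all genes tested had an unadjusted p under 0.05. MTF1 and SLC30A1, the members measured in both lines, did not move in opposite directions in this way. SLC30A10, which was higher in both Z325 libraries of NCI-H716, had 2 and 6 counts in the control and 0 in the Z325 libraries of HCT116, too few to pass the filter there.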

How the results depend on the processing

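With a replicate block, 2 of the 7 members passed in NCI-H716, MT1G (0.92, adjusted p = 0.00294 from edgeR) and SLC30A1 (0.58, adjusted p = 0.00571 from edgeR), and the calls over all genes went from 57 higher and 14 lower to 1061 and 1336. The numbers are not said to pair the libraries, and the deviations of same-numbered libraries correlated at 0.20 in NCI-H716 and -0.03 in HCT116. The block changed no call of a member in HCT116 or in the interaction. Under each other alternative run, leaving out single libraries included, 0 members passed in either line or in the interaction. Over the alternatives the adjusted p of MT1G ran from 0.00294 to 0.432 and that of SLC30A1 in NCI-H716 from 0.00571 to 0.839. The summed metallothionein ratio was 0.22 in TPM, 0.28 in FPKM, 0.08 with library size alone and 0.08 for the 5 members, and ran from -0.15 to 0.35 when 1 library was left out.

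Directions turned for genes near 0. MT2A in NCI-H716 was 0.14 in limma on log2(FPKM + 1), on log2(FPKM + 0.1) and with a mean FPKM of at least 1, 0.073 on log2(TPM + 1), and ran from -0.32 to 0.23 with 1 library left out. MTF1 in NCI-H716 was -0.0063 on log2(TPM + 1), and with 1 library left out it ran from -0.13 to 0.23, and MT1X from -0.031 to 0.31. In HCT116, SLC30A1 was -0.00020 with at least 10 counts in every library, -0.023 with library size alone, -0.027 on log2(TPM + 1), -0.040 without a filter and -0.010 after thinning. MTF1 was 0.12 after thinning and ran from -0.88 to 0.33 with 1 library left out, SLC30A1 from -0.29 to 0.40, and the interaction of MTF1 from -0.20 to 0.94. The cause was not tested. With 2 libraries a group, the intervals of MT1E and MT1F leave changes of over 2-fold in reach.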

Other observations

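The HCT116 table holds 3 loci of the metallothionein family. The pseudogene MT1XP1 (chromosome 1) had 10 and 7 counts in the control and 8 and 2 counts in the Z325 libraries, the gene MT1HL1 (chromosome 1) had 1 count in Z325 replicate 1 and the pseudogene MT2P1 (chromosome 4) had 2 counts in the same library. MT1XP1 matches the coding sequence of MT1X at 96.2% of bases. In NCI-H716, where MT1X had 509 to 1085 counts, all 3 loci were at 0 in every library.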
